A study of Mus with 21 samples.

Results

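Genomic imprinting is the expression of a gene from only the maternally or only the paternally inherited chromosome. Imprinted genes lie in clusters, and in each cluster a control region that carries methylation from 1 parent sets which allele is transcribed. At H19 and Igf2 the insulator protein CTCF binds the unmethylated control region, and cohesin, the ring complex that holds chromatin loops, gathers there. Nipbl loads cohesin onto chromatin, and Wapl releases it. Many imprinted genes regulate fetal growth, and several are abundant in the developing brain and hypothalamus.

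The members described here were 38 imprinted genes in 12 groups of loci, chosen by gene name from the 55335 genes of the deposited count table, and all 38 were among the 30553 genes tested. RNA was measured in the whole brain of E17.5 female embryos. The groups were 5 WT brains, 3 Nipbl+/- brains, 7 WaplΔ/+ brains and 6 brains heterozygous for both (double heterozygotes). The mice were kept on a C57BL/6J background. Wapl Δ lacks the promoter and the first exons. The Nipbl deletion reached the embryos through sires that carried a floxed Nipbl allele and the germline driver Stra8-iCre. The study made 2 crosses, with the Wapl deletion carried by the dam in the first and by the sire in the second. The genotype labels write the Wapl alleles as delta/+ in 2 WaplΔ/+ and 4 double heterozygous libraries and as +/delta in 5 and 2. They do not say which parent gave the allele or which cross gave each library.

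Library totals ranged from 25682566 to 35818767 counts. Summed markers of neurons lay between 127780 and 149760 normalized counts in all groups. Levels below are normalized counts, scaled by the trimmed mean of M-values to the mean library size, and they are compared only within a gene. The Nipbl level was 54.3% of WT in Nipbl+/- and 54.8% in double heterozygous brains, and the Wapl level was 46.7% of WT in WaplΔ/+ and 49.3% in double heterozygous brains. The libraries fell into a set of 12 with 0 to 6 counts of the mitochondrial gene mt-Nd3 and a set of 9 with 52 to 106 counts. All Nipbl+/- libraries were in the low set, and all 13 libraries with a Wapl deletion divided exactly as the written allele order did, so the order, the set and any difference in cross or litter cannot be told apart. The summed level of 7 meningeal and fibroblast markers ranged from 16440 to 21429 in WT, from 16556 to 26025 in Nipbl+/-, from 18102 to 32158 in WaplΔ/+ and from 13073 to 30716 in double heterozygous libraries. Pituitary markers, at 32.7 to 91.3 in 18 libraries, summed to 2801 in WT replicate 2, 323 in double heterozygote 5 and 1255 in double heterozygote 6. In bulk tissue, fewer cells of a type and less RNA per cell cannot be told apart.

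In Nipbl+/- brains 11 of the 38 imprinted genes differed from WT by edgeR's quasi-likelihood test (adjusted p below 0.10, Benjamini-Hochberg over all genes tested), against 11.2% of all genes. 5 rose, against 4.25% of all genes, and 6 fell, against 6.96%. In the Peg3 domain all 3 members, Zim1, Peg3 and Usp29, were lower. Dlk1, Magel2 and Peg12 were higher. In WaplΔ/+ brains 3 members were called against 2.22% of all genes, Mest higher (0.769% of all genes were higher) and Igf2r and Ppp1r9a lower (1.45% were lower). In double heterozygotes 2 members were called against 3.28% of all genes: H19 and Grb10 were higher (0.812% of all genes), and none was lower (2.46%). The median log2 fold change of the 38 members was -0.024 in Nipbl+/-, 0.036 in WaplΔ/+ and 0.008 in double heterozygous brains, beside -0.009, -0.003 and 0.001 over all genes. The median size of change was 0.088, 0.121 and 0.062 in the members and 0.162, 0.116 and 0.12 over all genes. In total 15 members were called in at least 1 of 8 comparisons and 23 in none. The share of all genes called in at least 1 comparison was not counted, so these totals have no background beside them.

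**Figure D1:**
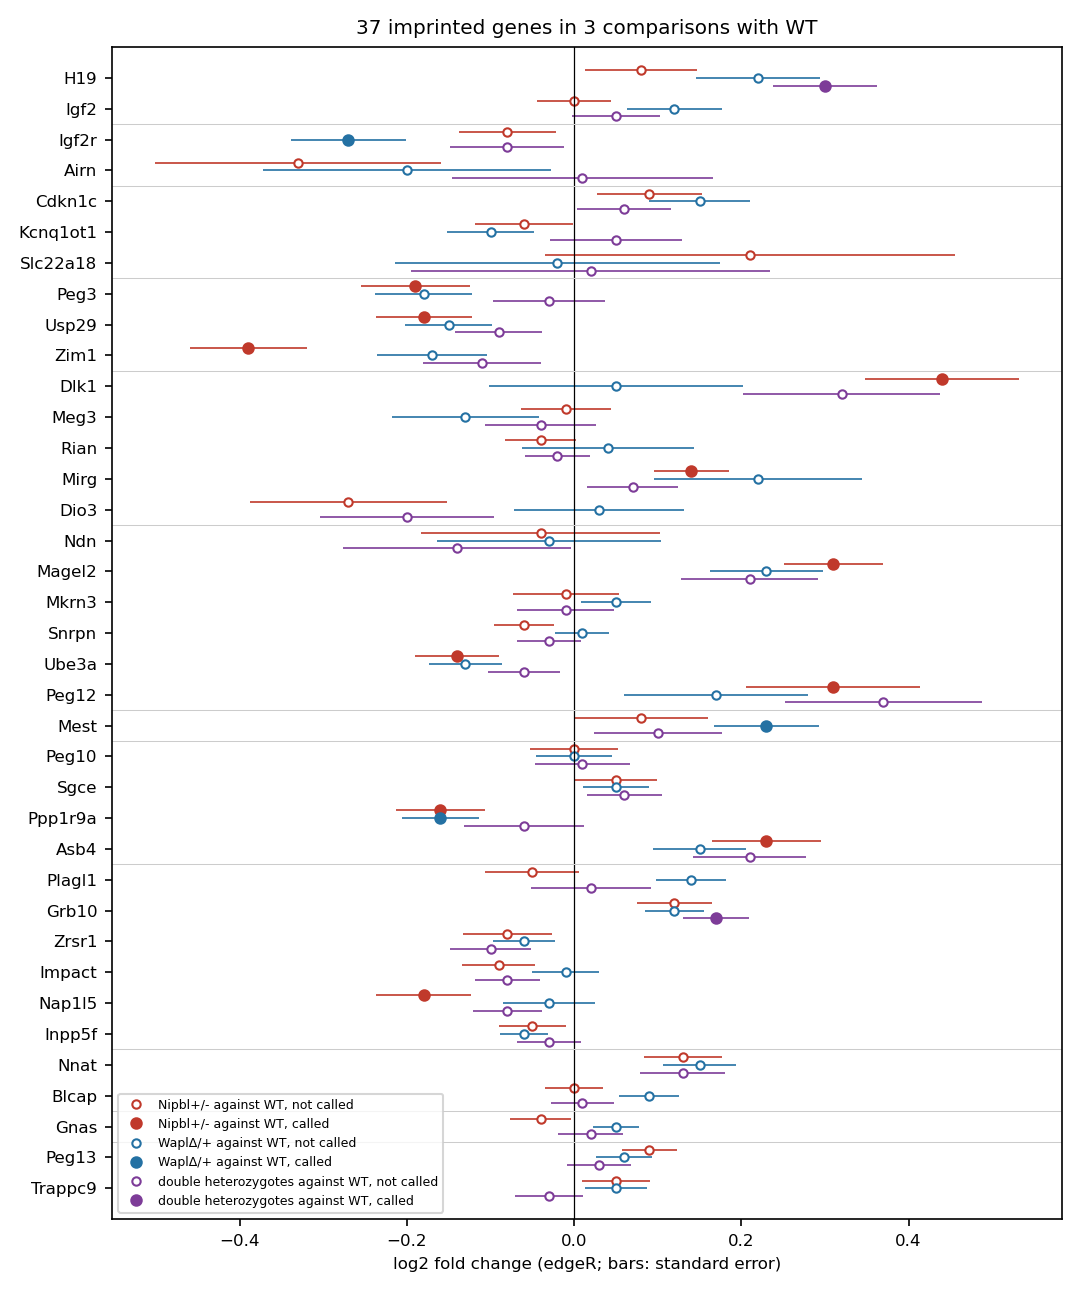
Log2 fold change against WT (horizontal axis) for 37 of the 38 imprinted genes, ordered by domain, with 3 comparisons in 3 colours; bars are standard errors and filled points passed the test. Phlda2, at 0 to 6.28 normalized counts, is left out; Zim1 at -0.39 and Dlk1 at 0.44 in Nipbl+/- brains lie farthest from 0.

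The Peg3 domain lies near one end of chromosome 7. Zim1 (GRCm38.p6, chr7:6674444-6696540), a maternally expressed zinc finger gene, measured 937, 1108 and 1011 normalized counts in the 3 Nipbl+/- libraries and 1472, 1466, 1214, 1211 and 1300 in WT. The groups did not overlap. The log2 fold change was -0.39 (SE 0.0700, edgeR adjusted p = 0.00185), and the call held under all 19 alternatives run, with adjusted p up to 0.0292. Zim1 ranged from 1002 to 1287 in WaplΔ/+ and from 1106 to 1415 in double heterozygotes, and it was called in neither. Over 21 libraries Zim1, Peg3 and Usp29 correlated at -0.51, -0.57 and -0.51 with the summed meningeal and fibroblast markers. With that sum as a term, chosen after seeing the data, the Nipbl+/- difference was -0.29 for Zim1 (edgeR adjusted p = 0.0166), -0.11 for Peg3 (0.551) and -0.10 for Usp29 (0.502).

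Peg3 (chr7:6703892-6730462), a paternally expressed zinc finger gene tied to maternal behaviour and growth, measured 6895, 7504 and 8116 in Nipbl+/- and 9158, 9011, 7626, 7586 and 9207 in WT. Its log2 fold change was -0.19 (SE 0.0654, edgeR adjusted p = 0.0927), and the groups overlapped. Usp29, a paternally expressed deubiquitinase gene read from the same bidirectional promoter region as Peg3, measured 2352, 2631 and 2798 in Nipbl+/- and 2656 to 3123 in WT. Its log2 fold change was -0.18 (SE 0.0574, edgeR adjusted p = 0.0665). Peg3 kept its call under 5 of 19 alternatives and Usp29 under 8 of 19, and without Nipbl+/- replicate 1 they were -0.13 (edgeR adjusted p = 0.388) and -0.11 (0.357). In WaplΔ/+ brains Peg3 and Usp29 were -0.18 and -0.15 against the same WT libraries, not called by edgeR (adjusted p = 0.146 and 0.154). DESeq2 called both there (adjusted p = 0.0767 and 0.0827). In double heterozygotes they were -0.03 and -0.09, called by neither. Across the 21 libraries the deviations of Peg3 and Usp29 from their group means rose and fell together (Pearson r = 0.88, Spearman rho = 0.888, adjusted permutation p = 8e-05 for both over 8 pairs of members). The unadjusted p of 1e-05 is the smallest that 100000 permutations can give. The correlation was 0.837 without the 2 farthest libraries, 0.919 in the 12 low and 0.797 in the 9 high mt-Nd3 libraries.

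In the Dlk1-Dio3 domain of chromosome 12 the protein-coding genes Dlk1, Rtl1 and Dio3 are expressed from the paternal chromosome and the long noncoding RNAs Meg3, Rian and Mirg from the maternal one. Dlk1 (chr12:109452485-109463336), which encodes a Notch-like membrane protein that keeps progenitors undifferentiated, measured 1824, 1371 and 1912 in Nipbl+/- and 1169, 1474, 1315, 1101 and 1198 in WT. Only the lowest Nipbl+/- library lay within the WT range. The log2 fold change was 0.44 (SE 0.0920, edgeR adjusted p = 0.00612), and 18 of 19 alternatives kept the call, the exception being the fit of all 4 groups (adjusted p = 0.215). With the meningeal term it was 0.29 (edgeR adjusted p = 0.0901), and Dlk1 correlated at 0.42 with the meningeal and at 0.52 with the bone and cartilage markers. Double heterozygotes spanned 1160 to 2156, with a log2 fold change of 0.32 (SE 0.118, edgeR adjusted p = 0.206), and WaplΔ/+ libraries spanned 607 to 1680 (0.05, SE 0.152, adjusted p = 0.909).

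Mirg, the noncoding host of a microRNA cluster, measured 1233, 1248 and 1337 in Nipbl+/- and 1105 to 1185 in WT, with no overlap (log2 fold change 0.14, SE 0.0447, edgeR adjusted p = 0.0691, kept under 9 of 19 alternatives). Meg3 (chr12:109540996-109571729) measured 142030, 172470 and 165880 in Nipbl+/- and 154270 to 170850 in WT. Its log2 fold change was -0.01 (SE 0.0539) in Nipbl+/-, -0.13 (SE 0.0875) in WaplΔ/+ and -0.04 (SE 0.0664) in double heterozygotes, with edgeR adjusted p of 0.934, 0.504 and 0.854. Rian ranged from 26189 to 31912 and Dio3, which inactivates thyroid hormone, from 69.7 to 121 in the libraries other than WaplΔ/+ replicate 6, and neither was called.

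**Figure D2:**
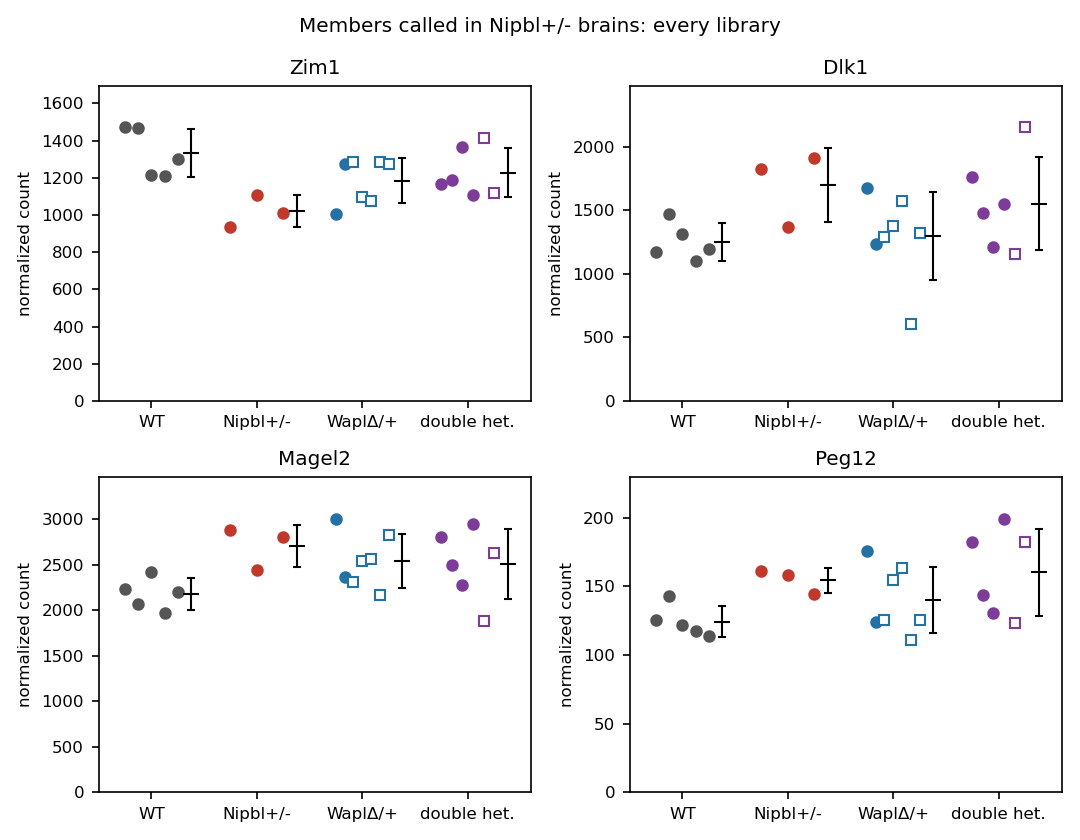
Normalized counts (vertical axis) of Zim1, Dlk1, Magel2 and Peg12 in every library of the 4 genotypes; filled circles are libraries with no Wapl deletion or with delta written first, open squares those with delta written second, and the black bars are the group mean and SD. The Nipbl+/- points lie below all WT points for Zim1 and above all WT points for Magel2 and Peg12.

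1 library stood apart in the Dlk1-Dio3 domain. WaplΔ/+ replicate 6, from the +/delta libraries, held 607 normalized counts of Dlk1, while the other 20 libraries held 1101 to 2156. The same library held 203570 of Meg3 (others 114620 to 181150), 47342 of Rian (others 26189 to 31912) and 2202 of Mirg (others 980 to 1337). Relative to the mean of the other 20 libraries, Dlk1 fell by 1.24 on the log2 scale, while Meg3, Rian and Mirg were higher by 0.43, 0.70 and 0.88.

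Measured against the spread of the other 20 libraries, Rian deviated by 9.45 SD and Mirg by 8.17 SD, ranks 1 and 2 of the 16141 genes with a mean of at least 50, and Dlk1 by -4.61 SD, rank 7. Across all 21 libraries and all members of that level, only 1 other value passed 4 SD, Plagl1 in double heterozygote 5 at -4.14 SD. Meg3 deviated by less, 2.58 SD. The 3 maternally expressed RNAs were thus high, though Meg3 less so in SD, in the library in which the paternally expressed Dlk1 was low. Dio3 was 83.9, within the range of the others. Rtl1, a paternally expressed gene whose span overlaps Meg3 and Rian, was 576 (others 339 to 633). The library preparation used does not mark strand, so reads of Rtl1 and of the RNAs across it cannot be told apart.

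The 26 genes within 1 Mb on either side of the domain did not share the shift. Their log2 differences in that library ranged from -0.85 to 0.17, and 3 of the 26 lay outside the range of the other libraries. The median over 525 genes of chromosome 12 with such a mean was 0.008. Begain, the nearest of the 26 genes before Dlk1, measured 2605 in that library and 2447 to 3272 elsewhere. In the comparison of WaplΔ/+ with WT, leaving this library out moved the number of members called from 3 to 8 and that of all genes from 677 to 914.

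**Figure D3:**
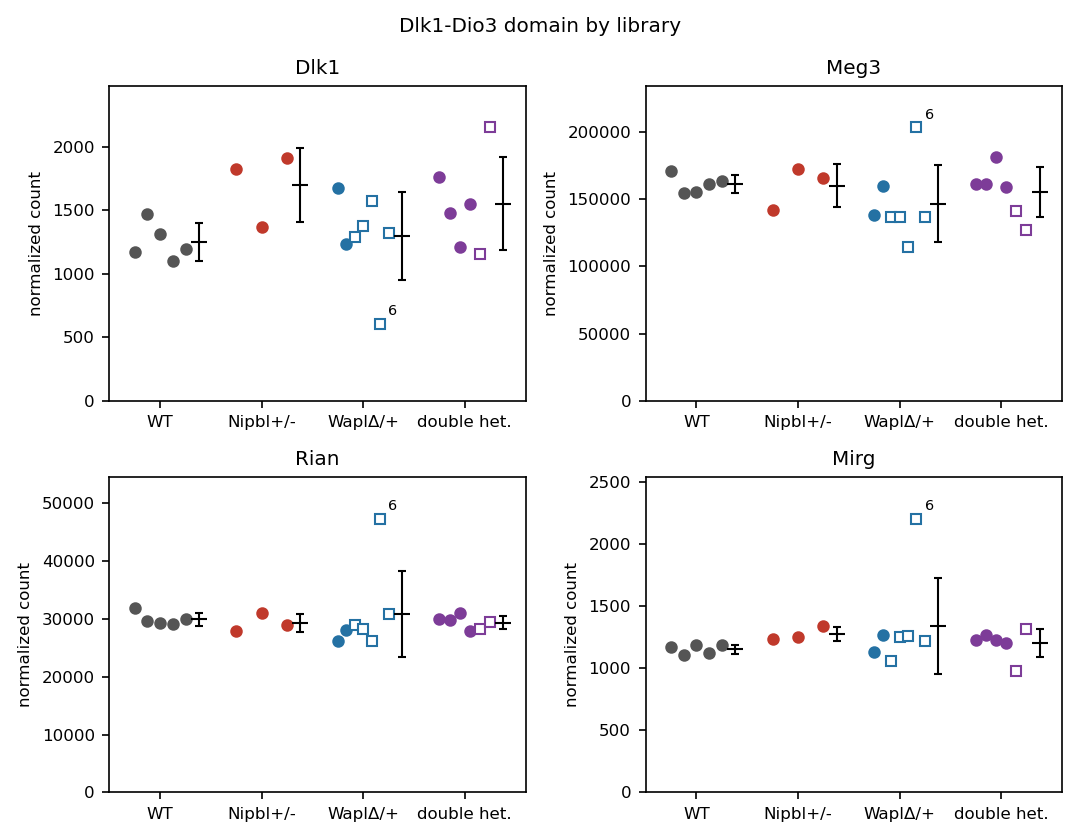
Normalized counts of Dlk1, Meg3, Rian and Mirg in every library, with circles, open squares (+/delta libraries), mean and SD bars, and WaplΔ/+ replicate 6 numbered. The numbered library is the lowest for Dlk1 at 607 and the highest for Meg3, Rian and Mirg at 203570, 47342 and 2202.

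Dlk1 and Meg3 deviated from their group means in opposite directions over the 21 libraries (r = -0.769, adjusted permutation p = 0.0108; rho = -0.582, adjusted permutation p = 0.0362), and Meg3 and Rian in the same direction (r = 0.759, adjusted permutation p = 0.0108; rho = 0.544, adjusted permutation p = 0.0464). Both relations rest in part on WaplΔ/+ replicate 6. Without it r was -0.579 and 0.532. Without the 2 farthest libraries r was -0.478 and 0.367, and neither passed (adjusted permutation p = 0.169 for both). Those left out were WaplΔ/+ replicate 6 and the pituitary-marked double heterozygote 6 for Dlk1 and Meg3. For Meg3 and Rian they were WaplΔ/+ replicates 6 and 5. Within the low and high mt-Nd3 sets r was -0.695 and -0.898 for Dlk1 and Meg3, and 0.519 and 0.903 for Meg3 and Rian.

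The Snrpn-Ube3a region, whose loss from the paternal or maternal chromosome underlies Prader-Willi and Angelman syndromes in people, also lies on chromosome 7. Magel2 (chr7:62376979-62381640), a paternally expressed hypothalamic regulator of protein trafficking, measured 2878, 2442 and 2797 in Nipbl+/- and 2226, 2067, 2416, 1966 and 2203 in WT. The groups did not overlap, though the lowest Nipbl+/- value lay just above the highest WT value. The log2 fold change was 0.31 (SE 0.0592, edgeR adjusted p = 0.00322), and all 19 alternatives kept the call, with adjusted p up to 0.0837. Magel2 correlated at 0.56 with meningeal and -0.58 with neuronal markers, and with the meningeal term the difference was 0.21 (edgeR adjusted p = 0.0339). Against WT, Magel2 was also higher in WaplΔ/+ (0.23, edgeR adjusted p = 0.115) and double heterozygous brains (0.21, 0.240), without an edgeR call. DESeq2 called the WaplΔ/+ difference (adjusted p = 0.0511).

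Peg12 measured 161, 158 and 144 in Nipbl+/- and 114 to 143 in WT (log2 fold change 0.31, SE 0.104, edgeR adjusted p = 0.0802, kept under 7 of 19 alternatives). Peg12 was 0.37 in double heterozygotes (edgeR adjusted p = 0.129) and 0.17 in WaplΔ/+ (0.480), and DESeq2 called the former (adjusted p = 0.0586). Ube3a, a ubiquitin ligase gene expressed from the maternal allele in neurons, measured 3132, 3385 and 3318 in Nipbl+/- and 3372 to 4045 in WT. Its log2 fold change was -0.14 (SE 0.0497, edgeR adjusted p = 0.0926, kept under 7 of 19 alternatives), and its span overlaps the antisense RNA Snhg14. In WaplΔ/+ brains Ube3a was -0.13, not called by edgeR (adjusted p = 0.154) but called by DESeq2 (adjusted p = 0.0854). In double heterozygotes it was -0.06 (edgeR adjusted p = 0.616). Snrpn, a splicing protein gene, ranged from 11283 to 13082 and Mkrn3, which restrains puberty, from 468 to 582, and neither was called in any comparison.

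Ndn (chr7:62348277-62349928), encoding the growth suppressor necdin, took 2 separate levels that did not follow genotype. It measured 9453 to 11626 in 15 libraries and 15295 to 16325 in 6, with no library between. The 6 were WT replicates 4 and 5 (15440 and 15845), Nipbl+/- replicate 3 (15295), WaplΔ/+ replicates 5 and 6 (16325 and 15612) and double heterozygote 6 (16165). Every genotype therefore held both levels, and 5 of the 6 were in the high mt-Nd3 set.

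The gap of 0.40 on the log2 scale took up 50.2% of the whole range of Ndn. Of 14542 genes with a mean of at least 100, 7 including Ndn had a gap that took so large a share of the range with at least 3 libraries on each side, and 39 had a gap as wide. Of the 34 members with such a mean, none other than Ndn had a gap over 21.6% of its range. The 3 genes next to Ndn did not follow it: over 21 libraries r with Ndn was -0.158 for Magel2, -0.266 for Mkrn3 and -0.166 for Peg12. For Ndn and Magel2, deviations from the group means gave r = -0.158 and rho = -0.07 (adjusted permutation p = 0.595 and 0.771), -0.281 without the 2 farthest libraries, and 0.206 and -0.026 within the low and high sets. Of 16141 genes the largest r with Ndn in size was -0.704, for Setmar, which ran opposite to it. The largest positive r was 0.67, for Zfp526.

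**Figure D4:**
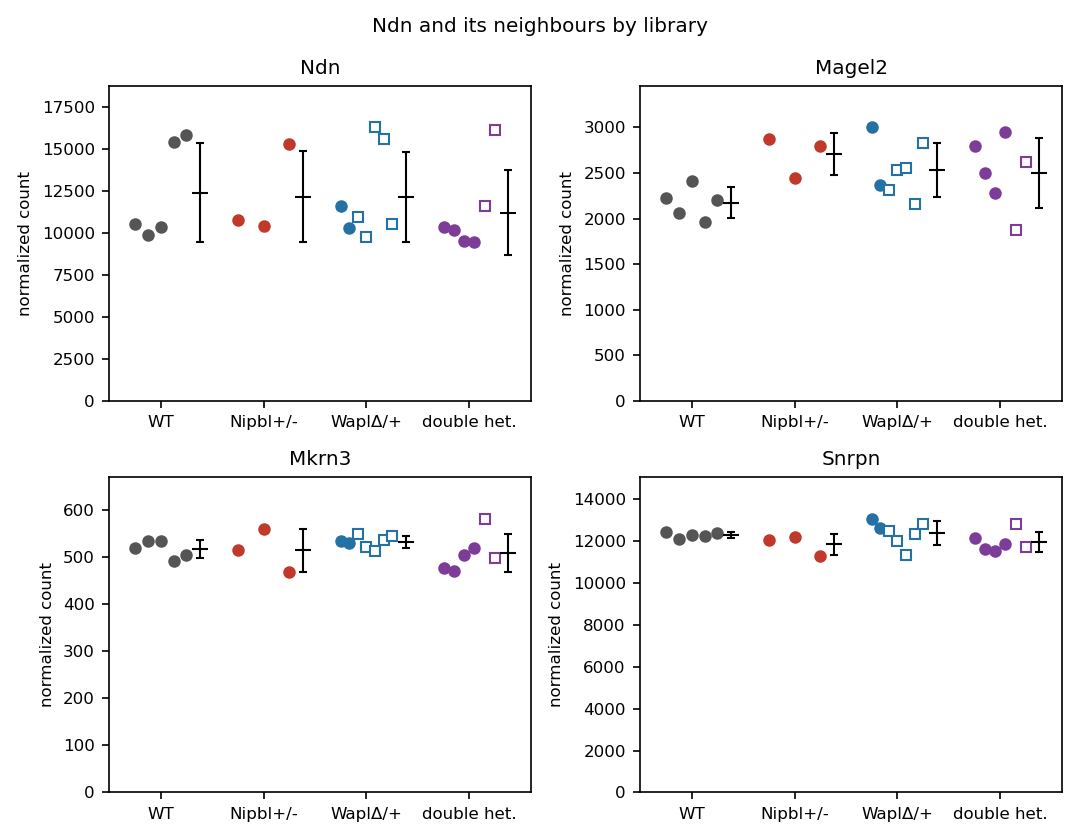
Normalized counts of Ndn, Magel2, Mkrn3 and Snrpn in every library of the 4 genotypes, with group means and SD in black and open squares for +/delta libraries. Ndn alone splits into a lower set of 15 libraries at up to 11626 and an upper set of 6 from 15295.

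H19 and Igf2 share enhancers on chromosome 7. H19 (chr7:142575530-142578146) is a noncoding RNA listed as maternally expressed, and Igf2 (chr7:142650768-142666816) encodes a growth factor listed as paternally expressed. Which allele these brains expressed was not measured. H19 measured 7614, 8564, 9105, 7822 and 8611 in WT and 12093, 9948, 9639, 9493, 9314 and 10573 in double heterozygotes, so that every double heterozygote lay above every WT library. The log2 fold change was 0.30 (SE 0.0621, edgeR adjusted p = 0.0170). The call held in 24 of 25 alternatives and was lost only among the 4 libraries of the high mt-Nd3 set, where the log2 fold change was 0.29. H19 measured 9793, 7608 and 9180 in Nipbl+/- (0.08, SE 0.0669, edgeR adjusted p = 0.579) and 8153, 9378 and 12110 at the lowest, median and highest of 7 WaplΔ/+ libraries (0.22, SE 0.0744, adjusted p = 0.156).

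Igf2 measured 10682, 10731, 11581, 11572 and 11588 in WT, 11964, 11178 and 10634 in Nipbl+/-, and from 9675 to 12340 in double heterozygotes. The WaplΔ/+ libraries reached from 10847 to 13834. The log2 fold change was 0.00, 0.12 and 0.05 in Nipbl+/-, WaplΔ/+ and double heterozygous brains (SE 0.0441, 0.0565 and 0.0523), and edgeR adjusted p was 0.985, 0.303 and 0.777. The deviations of H19 and Igf2 from their group means were positively correlated (r = 0.603, adjusted permutation p = 0.0275; rho = 0.726, adjusted permutation p = 0.0082). The correlation was 0.615 without the 2 farthest libraries, 0.566 and 0.639 within the low and high mt-Nd3 sets. H19 correlated at 0.78 and Igf2 at 0.65 with the summed meningeal and fibroblast markers over the same 21 libraries, and H19 at 0.69 with bone and cartilage markers. The latter summed to 6153 in double heterozygote 1, which had the highest H19 of its group, to 928 to 2599 in the other double heterozygotes and to 1073 to 1599 in WT. Without double heterozygote 1 the H19 difference was 0.24 (edgeR adjusted p = 0.0285). With the meningeal and fibroblast sum as a term, chosen after seeing the data, the H19 difference in double heterozygotes was 0.25 (edgeR adjusted p = 0.0181). Those in WaplΔ/+ and Nipbl+/- were then -0.06 and -0.06. No fit held the bone and cartilage sum as a term.

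Igf2r (chr17:12682406-12769706) encodes the receptor that clears Igf2 and is listed as maternally expressed, with the paternal antisense RNA Airn across its start. Whether these brains expressed Igf2r from the maternal allele only was not measured. It was the only member called between the written allele orders, where 0.167% of all genes were called (0.124% higher with delta first and 0.0425% lower). The delta/+ libraries measured 2612 and 3328 in WaplΔ/+ and 3280, 2948, 3178 and 3233 in double heterozygotes. The +/delta libraries measured 2427, 2670, 2311, 2416 and 2281 in WaplΔ/+ and 2543 and 2409 in double heterozygotes. The orders overlapped only through the delta/+ value of 2612, which lay below the +/delta value of 2670. In all, 5 of 6 delta/+ libraries lay within or above the WT range of 2865 to 3290.

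The difference, with genotype as a covariate, was 0.32 (SE 0.0569, edgeR adjusted p = 0.0347). It was 0.26 (adjusted p = 0.312) without WaplΔ/+ replicate 2 and 0.30 (adjusted p = 0.120) without double heterozygote 6. It was 0.30 (adjusted p = 0.526) within WaplΔ/+, 0.34 (0.225) within double heterozygotes and 0.29 (0.348) without pituitary-marked libraries, none of which passed. The WaplΔ/+ difference from WT was -0.27 in all libraries (SE 0.0686, edgeR adjusted p = 0.0644), -0.36 with the +/delta libraries alone (adjusted p = 2.97e-05) and -0.07 with the delta/+ libraries alone (adjusted p = 0.667). It was -0.16 (adjusted p = 0.799) with the meningeal term, and -0.06 (0.793) and -0.37 (0.00523) within the low and high mt-Nd3 sets. In WT, Igf2r averaged 3113 in the 3 low and 3133 in the 2 high libraries. Airn, at 22.3 to 61 normalized counts, was not called, and its correlation with Igf2r did not pass (r = 0.134 and rho = 0.242, adjusted permutation p = 0.62 and 0.387; 0.044 without the 2 farthest libraries and 0.421 and 0.221 within the low and high sets).

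Genes outside imprinted domains varied across the libraries much as Igf2r did. The 12 genes most like it over 21 libraries had r from 0.928 to 0.951. They were picked by that likeness after their values were seen, so their own difference between the orders is not a separate result. They include Dync1h1, the dynein heavy chain gene, and Fry, Ep400 and Hectd4, which encode very large proteins. Dync1h1 averaged 30773 ± 2458 (SD, n = 6) in delta/+ libraries and 24279 ± 2093 (SD, n = 7) in +/delta libraries. The part of library preparation, cross or transcript length in this pattern was not tested.

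**Figure D5:**
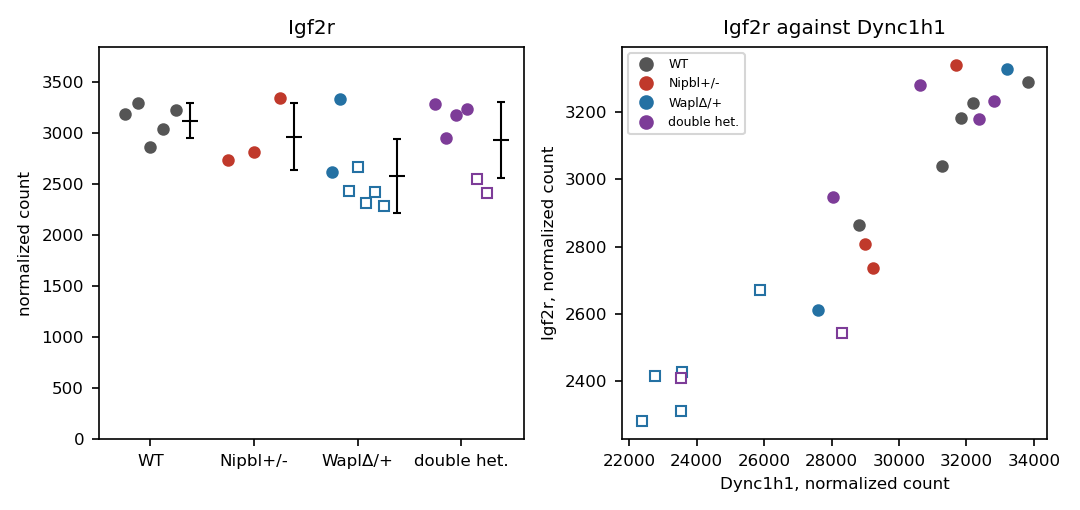
Left, normalized counts of Igf2r by genotype, open squares marking +/delta libraries and black bars the mean and SD. Right, Igf2r against Dync1h1 in the 21 libraries (both axes normalized counts, not starting at 0): the 7 open squares lie between 2281 and 2670 on the Igf2r axis.

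Other called members lay in the Peg10-Sgce cluster of chromosome 6 and at single loci. Asb4, a component of a ubiquitin ligase expressed in hypothalamus, measured 596, 589 and 547 in Nipbl+/- and 435 to 534 in WT (log2 fold change 0.23, SE 0.0654, edgeR adjusted p = 0.0394, kept under 14 of 19 alternatives). Asb4 was 0.21 in double heterozygotes (edgeR adjusted p = 0.136) and 0.15 in WaplΔ/+ (0.180), and DESeq2 called the former (adjusted p = 0.0713). Ppp1r9a encodes the actin-binding protein neurabin and is listed as maternally expressed outside the brain, the tissue measured here. It measured 3340, 3548 and 3720 in Nipbl+/- and 3640 to 4260 in WT, and 3270 to 3900 in WaplΔ/+. Its log2 fold change was -0.16 in both (SE 0.0533 and 0.0461, edgeR adjusted p = 0.0726 and 0.0974), and the comparisons share the WT libraries. The calls were kept under 11 of 19 and 10 of 26 alternatives. Ppp1r9a correlated at -0.65 with the meningeal markers, and with the meningeal term its differences were -0.11 (edgeR adjusted p = 0.439) and -0.07 (0.864).

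Nap1l5, a nucleosome assembly gene inside Herc3, measured 3068, 3736 and 3192 in Nipbl+/- and 3575 to 4065 in WT (-0.18, SE 0.0571, edgeR adjusted p = 0.0715, kept under 9 of 19 alternatives). It was -0.08 (adjusted p = 0.533) with the meningeal term and -0.12 (adjusted p = 0.350) without Nipbl+/- replicate 1. Grb10, an adaptor that restrains insulin signalling and is paternally expressed in neurons, measured 4641, 4427, 4301, 4664, 4178 and 4857 in double heterozygotes and 3899, 4050, 4100, 3969 and 4112 in WT, without overlap (log2 fold change 0.17, SE 0.0397, edgeR adjusted p = 0.0284, kept under 21 of 25 alternatives). Against the same WT libraries, Grb10 was also 0.12 in Nipbl+/- (edgeR adjusted p = 0.124) and 0.12 in WaplΔ/+ (0.109), without an edgeR call. DESeq2 called Grb10 in both (adjusted p = 0.0604 and 0.0449). Mest, a paternally expressed mesodermal gene, ranged from 2345 to 3088 in WaplΔ/+ and from 2091 to 2629 in WT (log2 fold change 0.23, edgeR adjusted p = 0.0931, kept under 10 of 26 alternatives). Grb10 and Mest correlated at 0.51 and 0.52 with the meningeal and fibroblast markers and at -0.56 and -0.60 with the neuronal ones.

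The members that edgeR did not call are described by their range over the 21 libraries. DESeq2 called some of them: Nnat (0.14, adjusted p = 0.0304) and Peg13 (0.10, adjusted p = 0.0113) in Nipbl+/-, and Nnat (0.14, adjusted p = 0.0527) and Plagl1 (0.14, adjusted p = 0.0533) in WaplΔ/+. In the Kcnq1 domain the growth inhibitor Cdkn1c ranged from 2479 to 3454, the antisense RNA Kcnq1ot1 from 544 to 781, Slc22a18 from 12 to 27.2 and Phlda2 from 0 to 6.28, so a change of Phlda2 was not detectable at this depth. Without strand, reads of Kcnq1ot1 and Kcnq1, and of Airn and Igf2r, cannot be told apart where they overlap. Cdkn1c and Kcnq1ot1 deviated in opposite directions (r = -0.483, adjusted permutation p = 0.0487; rho = -0.439, adjusted permutation p = 0.0993; r of -0.466 without the 2 farthest libraries, -0.427 in the low and -0.562 in the high set). Peg10, a retrotransposon-derived gene, ranged from 4620 to 6384 and its neighbour Sgce from 736 to 851 (r = -0.426 and rho = -0.29, adjusted permutation p = 0.0822 and 0.269; -0.105 without the 2 farthest libraries, -0.278 and -0.182 within the sets).

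The stimulatory G protein gene Gnas ranged from 34145 to 38598, the neuronal proteolipid gene Nnat from 57762 to 74994 and Blcap, in whose intron Nnat lies, from 4448 to 5340. Peg13 ranged from 10862 to 12746 and its host gene Trappc9 from 1915 to 2333. Plagl1, a zinc finger regulator of growth genes, ranged from 1952 to 3144, Zrsr1 from 810 to 1005, Impact from 1600 to 1951 and the phosphatase gene Inpp5f from 11319 to 13104.

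The call counts depended on single libraries. In Nipbl+/- they were 5, 6 and 5 members without WT replicates 1, 2 and 5, and 4 and 17 without Nipbl+/- replicates 1 and 2. With the low mt-Nd3 libraries alone, where all Nipbl+/- libraries lie, 4 were called. With the meningeal term 3 members were called, Zim1, Dlk1 and Magel2. In WaplΔ/+ the count fell to 0 without any one of WT replicates 1, 2, 4 and 5 or WaplΔ/+ replicates 4 and 5, and it was 10 and 5 without WaplΔ/+ replicates 2 and 3. In double heterozygotes it was 1 without WT replicate 1, and 6 and 8 without double heterozygotes 3 and 5.

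The genotypes were also compared with each other. Between double heterozygotes and Nipbl+/- brains edgeR called 0 members, against 0.00655% of all genes, and DESeq2 called 0. Zim1 (0.27) and H19 (0.20) had unadjusted edgeR p of 0.00592 and 0.0295, and 4.12% of all genes were below 0.05. Between double heterozygotes and WaplΔ/+ brains edgeR called 0 members, against 1.02% of all genes, and DESeq2 called 0; 2 of 38 had an unadjusted p below 0.05, Igf2r and Peg3, beside 9.94% of all genes.

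The test of whether the effect of the Nipbl deletion differed with the Wapl deletion called 0 members by edgeR (0% of all genes), 9 of 38 having an unadjusted p below 0.05, beside 13.8% of all genes. The smallest was for Zim1 (interaction 0.41, SE 0.114, edgeR adjusted p = 0.201). DESeq2 called 3, Zim1, Peg3 and Ube3a (adjusted p = 0.0549, 0.0788 and 0.0807), among 793 genes in all. The test of allele order by Nipbl genotype called 0 members by edgeR (0% of all genes) and 0 by DESeq2, with 2 of 38 at an unadjusted p below 0.05, Igf2 and Ube3a, beside 6.83% of all genes.

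By parental allele, the 6 members called among the 21 listed as paternally expressed in Nipbl+/- divided into 3 higher and 3 lower, and the 3 called among the 10 listed as maternally expressed into 2 higher and 1 lower, beside 4.25% of all genes higher and 6.96% lower.

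A further list of 43 imprinted genes, of which 42 were in the table and tested, held 10 called genes in Nipbl+/- brains, 2 higher and 8 lower, beside 11.2% of all genes (4.25% higher and 6.96% lower). Kcnk9, a potassium channel gene beside Peg13, fell by 0.71 on the log2 scale (SE 0.0704, edgeR adjusted p = 2.8e-05), Calcr, the calcitonin receptor gene of the Peg10-Sgce cluster, by 0.57, Zim3, whose span overlaps Usp29, by 0.50 and the serotonin receptor gene Htr2a by 0.49. Sfmbt2, Phactr2, Ago2 and Cd81 fell by 0.37, 0.27, 0.20 and 0.19, and Ddc and H13 rose by 0.22 and 0.12. In WaplΔ/+ brains Calcr rose by 0.26, and Zim3 and Ago2 fell by 0.37 and 0.25, beside 2.22% of all genes called. In double heterozygotes Kcnk9, Htr2a and Calcr fell by 0.47, 0.45 and 0.35, beside 3.28% of all genes called. All 3 comparisons share the WT libraries. Calcr was lower by 0.62 in double heterozygotes than in WaplΔ/+ brains (edgeR adjusted p = 0.000123).

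Of 14 genes that maintain imprints, 13 were tested. In Nipbl+/- brains the maintenance methyltransferase gene Dnmt1 rose by 0.12, the histone methyltransferase gene Ehmt2 rose by 0.13 and the chromatin remodeller gene Atrx fell by 0.14 (edgeR adjusted p = 0.0616, 0.0305 and 0.0910), 3 of 13 beside 11.2% of all genes. In WaplΔ/+ brains Dnmt3a fell by 0.17 (edgeR adjusted p = 0.0863), 1 of 13 beside 2.22% of all genes. In double heterozygotes edgeR called 0 of 13, beside 3.28% of all genes, and DESeq2 called 0, beside 1477 genes in all. An unadjusted edgeR p below 0.05 was found for 0 of 13, beside 13.5% of all genes.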

How the data were processed

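Raw gene counts were deposited by the authors. Per the labels, oligo-d(T)-purified RNA was made into libraries with a kit that does not mark strand. The submitters' processing notes name cutadapt 2.4, STAR 2.5.3a, featureCounts (Subread 1.6.4) and MultiQC 1.9 with mm10 (GRCm38.p6). The strand setting, the annotation and the treatment of reads shared between genes are not given in the sources used here. 1 further Nipbl+/- library was not analysed here. Replicates are separate embryos as labelled.

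Counts were scaled by TMM, and genes whose 21 normalized counts summed to 10 or more were tested with edgeR 4.0.16 quasi-likelihood fits in R 4.3.3 of the groups compared, with calls at adjusted p below 0.10 over all genes. DESeq2 1.42.0, other filters, replicate left-out fits and the other settings were alternatives, and the meningeal term and the omission of pituitary-marked libraries were added after seeing the data. For Nipbl+/- and WaplΔ/+ against WT, that omission removes WT replicate 2 only. It is therefore the same fit as the one without WT replicate 2, and the counts of alternatives include it under both names. Correlations of the 8 pairs of members used deviations of log2 levels from group means and 100000 permutations within groups, two-sided. Correlations with marker sums used such deviations without a test. Those of Ndn with its neighbours, and of Ndn and Igf2r with genes outside the members, used log2 levels without a test. Group means were left in the latter, so group differences enter them. The fits were tested on simulated data. The members, lists and tests were chosen with earlier results of these data known. Members called in a comparison, the 14 with the smallest adjusted p, and H19, Igf2, Dlk1 and Meg3 are given with statistics; other members by range, and further genes of the lists where called. Coordinates are those of RefSeq genes on GRCm38.p6, and all 38 members matched.

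Genome sequence was not used here. Rtl1, Begain, Setmar, Zfp526 and the genes resembling Igf2r were named after their values were seen.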

Additional observations from a re-analysis of the deposited data

Results flagged for a closer look

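Within each group of 4 to 10 libraries, the highest and lowest value of each member were set against the rest of the group with Dixon's gap test at the 95% level, which chance passes in about 1 of 20 groups. Of 114 gene and group combinations, 9 passed. In WaplΔ/+ replicate 6 they were Dlk1, low at 607 (others of the group 1234 to 1680), Rian, high at 47342 (26189 to 30878) and Mirg, high at 2202 (1055 to 1269). Igf2r was high at 3328 in WaplΔ/+ replicate 2 (2281 to 2670), and Ube3a was low at 2892 in WaplΔ/+ replicate 1 (3240 to 3473). Rian was high at 31912 in WT replicate 1 (29158 to 29937), and Peg10 was low at 5194 in WT replicate 4 (5752 to 5875). Mirg was low at 980 in double heterozygote 5 (1205 to 1311), and Ndn was high at 16165 in double heterozygote 6 (9453 to 11597). Double heterozygotes 5 and 6 also held pituitary markers. No cause of these values was tested.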

How the results depend on the processing

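Of 598 gene values under the alternatives, 426 kept direction and call, 139 lost a call, 14 gained one and 19 changed sign, and the cause of a change was not tested unless named. In Nipbl+/- the 11 members called became 4 at a threshold of 0.05, 4 in the low mt-Nd3 libraries, 5 with the mt-Nd3 set as a term, 3 in a fit of all 4 groups, 3 with the meningeal term and 6 without pituitary-marked libraries. In WaplΔ/+ the 3 became 0 at 0.05, in the 4-group fit, in the low set, with the meningeal term and without pituitary-marked libraries, 1 with the mt-Nd3 term and in the high set, 7 with +/delta libraries alone, 8 with no filter and 10 by DESeq2. In double heterozygotes the 2 became 4 by DESeq2, with no filter and with +/delta libraries alone, 5 with delta/+ libraries alone, 0 in the high set and 6 without pituitary-marked libraries. Double heterozygotes against WaplΔ/+ gave 1 without those libraries. Allele order gave 2 with no filter and 0 within WaplΔ/+, within double heterozygotes and without those libraries, and the Nipbl by Wapl interaction gave 3 by DESeq2.

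Leaving out 1 library at a time gave 4 to 17 members in Nipbl+/-, 0 to 10 in WaplΔ/+, 1 to 8 in double heterozygotes, 0 to 0 between double heterozygotes and Nipbl+/-, 0 to 1 between double heterozygotes and WaplΔ/+, 0 to 1 for allele order, and 0 to 1 and 0 to 2 for the interactions with Wapl and with order. Over all genes, these fits called 1828 to 4786 genes in Nipbl+/- (3422 with all libraries), 9 to 1534 in WaplΔ/+ (677) and 454 to 2504 in double heterozygotes (1001), and the other settings called 1253 to 4019, 7 to 1991 and 1 to 1814.

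Replicate numbers did not pair the libraries: over 25 pairs with the same number the correlation of deviations ran from -0.272 to 0.437, 8 passed 0.1, and 3 libraries correlated best with their own number. With the number as a block, members called were 4 in Nipbl+/-, 14 in WaplΔ/+, 1 in double heterozygotes, 1 between double heterozygotes and Nipbl+/- and 1 for order by Nipbl, for allele order Igf2r was 0.25 (adjusted p = 1) and the 1 member called was H19 (-0.51, adjusted p = 0.0846), and Meg3 in double heterozygotes was 0.01.

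No uncalled value that changed sign passed the test. With the meningeal term H19 was -0.06 in Nipbl+/- and -0.06 in WaplΔ/+, Meg3 was 0.07 and 0.01, and Igf2 and Dlk1 in WaplΔ/+ were -0.01 and -0.12. Meg3 in Nipbl+/- was 0.02 in the 4-group fit and 0.01 and 0.07 without WT replicate 1 and Nipbl+/- replicate 1. In WaplΔ/+ Igf2 was -0.01 in the low set and -0.04 with delta/+ alone, and Dlk1 was -0.02 with +/delta alone and from -0.02 to 0.18 with 1 library left out (lowest without WaplΔ/+ replicate 1, highest without replicate 6). In double heterozygotes Igf2 was -0.07 in the high set and -0.02 with +/delta alone, and Meg3 was 0.06 in the low set, 0.04 with delta/+ alone and 0.04 without pituitary-marked libraries.

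The H19 and Igf2 correlation lost its call in the low and high sets (0.566 and 0.639), Dlk1 and Meg3 without the 2 farthest libraries and in the high set (-0.478 and -0.898), Meg3 and Rian likewise (0.367 and 0.903), and Peg3 and Usp29 in the high set (0.797). Cdkn1c and Kcnq1ot1 lost it with DESeq2 size factors (-0.448), without the 2 farthest (-0.466) and within the sets (-0.427 and -0.562). Ndn and Magel2 changed sign in the low set (0.206). The sets hold fewer libraries. Fits within the high set could not be made for Nipbl+/-, which has no library there.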
